A study of Mus musculus with 7 samples.

Results

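The macrophage lineage transcription factors described here are 9 genes of 23337 listed per library: Spi1, Runx1, Cebpa, Cebpb, Cebpd, Maf, Mef2c, Klf2 and Klf4. They were chosen by name, as factors known for macrophage identity, but with earlier results of these data known. All 9 were found, Spi1 under its older symbol Sfpi1, and all 9 were among the 11096 genes tested. The cells were bone marrow-derived macrophages, made by growing marrow of male mice aged 6 to 8 weeks in the growth factor M-CSF at 25 ng/ml for 7 days. They then received lipopolysaccharide (LPS, the endotoxin of bacteria, detected through Tlr4) for 6 hours at 10 ng/ml, or were left unstimulated (M0). Mice lacking Tgm2 (transglutaminase 2, a protein-crosslinking enzyme) and wild-type mice gave 4 groups: KO LPS (n = 2), WT LPS (n = 2), KO M0 (n = 1) and WT M0 (n = 2). All 4 groups were grown in M-CSF. The labels do not say in which cells Tgm2 was deleted, what strain the mice were, or whether replicates came from separate animals, and a p-value here speaks only of the spread among these libraries, which may be technical.

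These factors set up the myeloid gene programme in layers. PU.1, the product of Spi1, and Runx1 act early: PU.1 opens macrophage enhancers, including those of the M-CSF receptor gene Csf1r, and Runx1 with its partner Cbfb is needed for blood stem cells to form and acts on the Spi1 locus itself. The C/EBP factors then build the granulocyte and macrophage programmes, and Maf, Mef2c, Klf2 and Klf4 shape the differentiated state, its self-renewal and its inflammatory tone.

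Levels are in TPM, relative transcript levels corrected for gene length and summing to 1000000 in each library. Sequencing depth cannot be read from TPM and is unknown. Tgm2 stood at 19.4 and 19.2 TPM in KO LPS against 233 and 199 TPM in WT LPS. Without LPS it stood at 50.7 TPM in KO M0 against 433 and 368 TPM in WT M0. The 10 macrophage markers were all detected, and their summed level lay between 36038 and 52131 TPM in every library, most of it Lyz2 (28492 to 42151 TPM). Within that list Cd68 stood at 474 to 684 TPM in the LPS libraries against 1679 to 1845 TPM in the M0 libraries, and Trem2 at 175 to 251 TPM against 988 to 1304 TPM. Fcgr1 went the other way, at 275 to 425 TPM in the LPS libraries against 217 to 230 TPM in the M0 libraries. Itgam overlapped, at 745 to 876 TPM against 736 to 830 TPM. Xist, the RNA that silences an X chromosome in female cells, was at 47.2 and 55.4 TPM in WT LPS, although every library is labelled male, and at 0 or 0.00535 TPM in the other 5 libraries. The Y-linked gene Kdm5d was at 8.75 and 9.64 TPM in KO LPS, 3.42 and 5.00 TPM in WT LPS, 14.5 TPM in KO M0, and 11.5 and 13.2 TPM in WT M0. In comparisons that use WT LPS, this difference and the group cannot be told apart. The KO LPS against KO M0 comparison does not contrast those libraries, and fitted without both of them it called the same number of the factors, 5 of 9. Among markers of other cell types, 6 of 9 neutrophil markers found were under 1 TPM in every library, including Elane, Mpo and S100a9. The summed neutrophil level was 155 and 218 TPM in KO LPS, 288 and 413 TPM in WT LPS, 22.0 TPM in KO M0 and 20.5 to 23.4 TPM in WT M0. Most of it was S100a8 in the LPS libraries (96.9 to 321 TPM) and Mmp8 in the M0 libraries (12.0 to 17.0 TPM). Of the other lists, 5 of 8 mast cell and basophil markers and 3 of 6 B cell markers were at 0 in every library. The dendritic cell list, 5 of whose 8 genes were under 1 TPM throughout, summed to 1404.6 and 1014.5 TPM in KO LPS, 1128 and 738 TPM in WT LPS, 371 TPM in KO M0 and 360.4 to 462 TPM in WT M0, nearly all from Bst2. The sums of further lists also differed between groups, in patterns that were not the same from list to list. The progenitor list, with 3 of 6 genes under 1 TPM throughout, summed to 37.9 and 25.8 TPM in KO LPS, 10.9 and 11.9 TPM in WT LPS and 1.20 to 1.62 TPM in the M0 libraries, most of it Gfi1 in the LPS libraries. The stromal, endothelial and osteoblast list summed to 71.9 and 65.5 TPM in KO LPS, 33.4 and 31.0 TPM in WT LPS, 32.1 TPM in KO M0, and 37.0 and 47.9 TPM in WT M0. The genes of that list moved in different directions. Its highest gene, Kdr, was at 37.9 and 38.9 TPM in KO LPS, 12.7 and 7.30 TPM in WT LPS, 7.43 TPM in KO M0, and 4.98 and 5.15 TPM in WT M0. Col1a1 was at 1.18 and 1.56 TPM in KO LPS, 0 TPM in both WT LPS libraries, 10.4 TPM in KO M0, and 13.2 and 18.6 TPM in WT M0. The erythroid and megakaryocyte list, with 4 of 8 genes at 0 in every library, was nearly all Pf4 and summed to 373 and 300.2 TPM in KO LPS, 836 and 862 TPM in WT LPS, 499 TPM in KO M0, and 586 and 547 TPM in WT M0. The T and NK cell list, with 7 of 8 genes under 1 TPM throughout, summed to at most 1.98 TPM in the LPS libraries and to between 12.0 and 15.3 TPM in the M0 libraries. The part of these other cell types in the results was not tested. In bulk RNA, fewer cells of a type and less RNA per cell cannot be told apart.

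The 9 factors divided into 3 patterns. Mef2c, Klf2, Klf4 and Cebpa were lower with LPS in both genotypes, Cebpd was higher with LPS in both, and Spi1, Runx1, Maf and Cebpb did not pass the test in any comparison. Knockout and wild-type cells differed under LPS for Cebpa, which was lower in KO LPS, and for Cebpd, which was higher in KO LPS. Calls are from limma on log2(TPM + 1), Benjamini-Hochberg adjusted over all 11096 tested genes at 0.05. Under LPS, 2 of the 9 were called between genotypes, 1 higher and 1 lower in KO LPS, where 7.16% of all tested genes were called, 4.59% higher and 2.58% lower. Between KO M0 and WT M0, 0 of 9 were called by limma, where 0.00901% of genes were, and at an unadjusted p under 0.05 the counts were 0 of the 9 factors and 154 of all genes. In the LPS response of knockout cells 5 of 9 were called, 1 higher and 4 lower, against 38.1% of all genes, 13.8% higher and 24.3% lower. In wild-type cells 5 of 9 were called, 1 higher and 4 lower, against 44.6% of all genes, 15.0% higher and 29.6% lower. For the difference between both LPS responses (knockout minus wild type), 0 of 9 were called by limma, where 1.37% of genes were. At an unadjusted p under 0.05 that difference counted 2 of the 9 factors, Cebpa and Cebpd, and 1160 of all genes. The median log2 fold change of the 9 was -0.49 in the knockout and -0.34 in the wild-type LPS response, beside -0.24 and -0.21 over all tested genes.

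**Figure D1:**
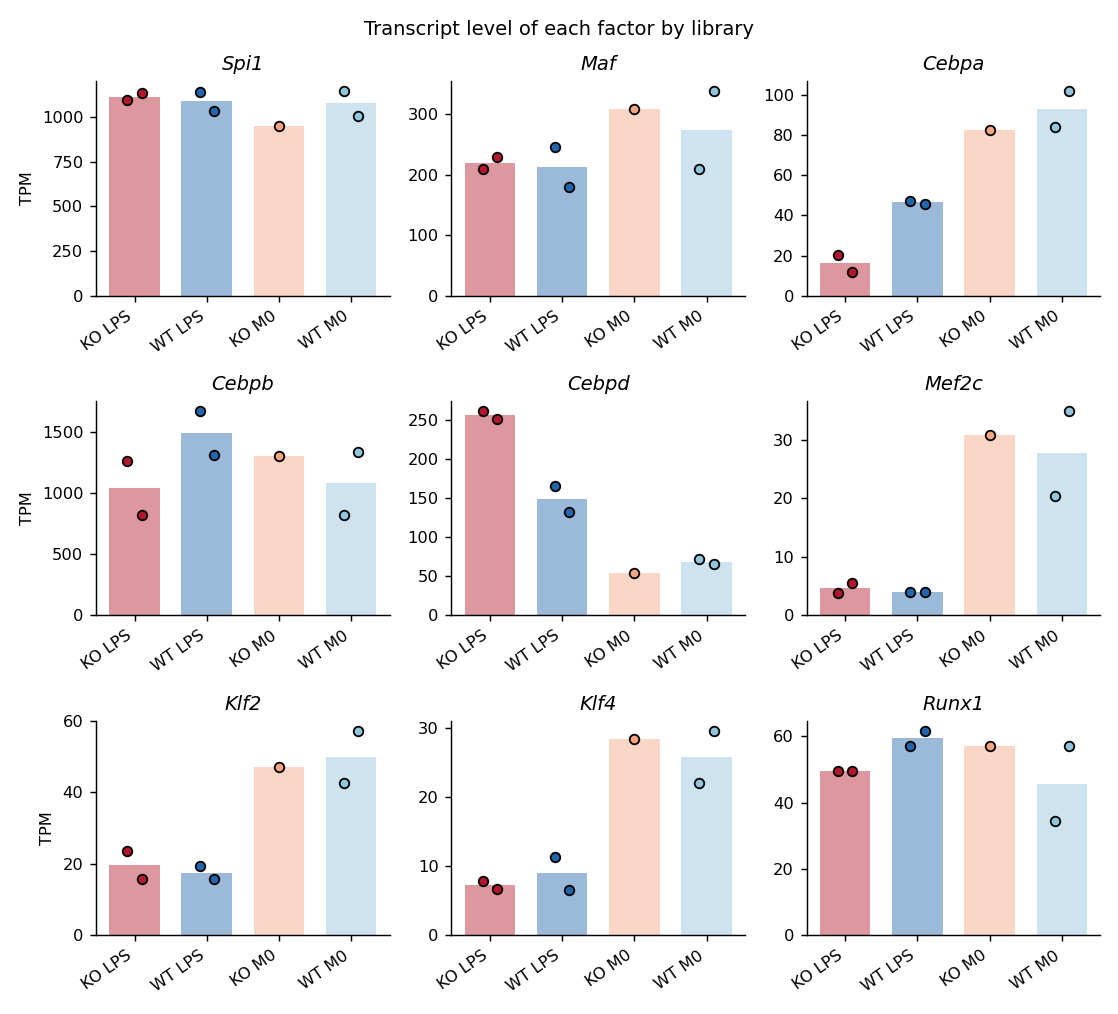
TPM of the 9 factors (vertical axes, starting at 0) in KO LPS, WT LPS, KO M0 and WT M0, with a point per library and a bar at the group mean, which for KO M0 is a single library. Cebpa, Mef2c, Klf2 and Klf4 lie lower in all 4 LPS libraries than in all 3 M0 libraries, and Cebpd lies higher.

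Spi1 was among the most abundant transcripts, at place 118 of all genes by mean TPM. This gene at chr2:91082374-91115759 (GRCm38, RefSeq coordinates) encodes PU.1, an ETS-family factor without which macrophages do not form. Its level was 1097 and 1131 TPM in KO LPS, 1142 and 1032 TPM in WT LPS, 947 TPM in KO M0, and 1143 and 1007.5 TPM in WT M0. The KO M0 library was the lowest of the 7, and the other 3 groups overlapped. The LPS log2 fold change was 0.23 in knockout cells (95% interval -0.18 to 0.65) and 0.02 in wild-type cells (-0.32 to 0.35). Between genotypes it was 0.04 under LPS (-0.30 to 0.37) and -0.18 without LPS (-0.59 to 0.23). None of these passed the limma test (adjusted p 0.35 to 1).

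Of the 15 tested ETS genes other than Spi1, 1 was higher and 5 lower in KO LPS against KO M0, and 1 higher and 5 lower in WT LPS against WT M0, with median log2 fold changes of -0.47 and -0.26. Over all tested genes 38.1% and 44.6% were called in these responses, with medians of -0.24 and -0.21, so the count in the family is near the background. Etv3, a repressor of the family, was at 35.8 and 31.9 TPM in KO LPS against 113 TPM in KO M0, and at 34.9 and 36.2 TPM in WT LPS against 112 and 131 TPM in WT M0. Ets2, the member that rose, reached 509 and 538 TPM in KO LPS against 158 TPM in KO M0, and 384 and 289 TPM in WT LPS against 129 and 157 TPM in WT M0. Its log2 fold change was 1.72 (SE 0.22, adjusted p 0.000156) in knockout and 1.22 (SE 0.18, adjusted p 0.000313) in wild-type cells. Elk3 was lower in KO LPS than in WT LPS (-0.75, SE 0.19, adjusted p 0.0388), a call lost on leaving out either KO LPS library (adjusted p 0.0951 and 0.177), either WT LPS library (0.051 and 0.3) or WT M0 replicate 2 (0.0501). Csf1r, a classic PU.1 target, was at 1982 and 2089 TPM in KO LPS, 2125 and 2281 TPM in WT LPS, 3175 TPM in KO M0, and 2779 and 3248 TPM in WT M0, with LPS log2 fold changes of -0.64 (adjusted p 0.0239) in knockout and -0.45 (adjusted p 0.0399) in wild-type cells. Under median-ratio scaling neither passed (-0.39 and -0.23, adjusted p 0.135 and 0.254). Leaving out KO LPS replicate 1 (adjusted p 0.057) or either WT LPS library (0.05 and 0.0502) ended the knockout call, and leaving out either WT LPS library (0.218 and 0.115) or WT M0 replicate 2 (0.177) ended the wild-type call. Irf8, the interferon regulatory factor that partners PU.1 on composite sites, was at 68.0 and 59.8 TPM in KO LPS, 93.7 and 86.9 TPM in WT LPS, 79.6 TPM in KO M0, and 93.0 and 97.1 TPM in WT M0. Both KO LPS libraries were the lowest for Irf8, but the difference from WT LPS missed the threshold (-0.49, SE 0.16, adjusted p 0.0933).

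Runx1, at chr16:92601466-92826074, likewise passed in no comparison. Its level was 49.7 and 49.6 TPM in KO LPS, 57.1 and 61.7 TPM in WT LPS, 57.2 TPM in KO M0, and 34.3 and 57.2 TPM in WT M0. WT M0 replicate 1 stood apart as the lowest value, and replicate 2 was 1.67 times as high. The log2 fold change was -0.25 for KO LPS against WT LPS (95% interval -0.74 to 0.24) and -0.20 for KO LPS against KO M0 (-0.80 to 0.40), the second turning to 0.05 under median-ratio scaling. For WT LPS against WT M0 it was 0.41 (-0.08 to 0.90, adjusted p 0.155), a value that passed with the TPM scaled by median ratios (0.63, adjusted p 0.0349) and when WT M0 replicate 2 was left out (0.77, adjusted p 0.0131). Cbfb, the partner that strengthens DNA binding by Runx1, was at 115 and 125 TPM in KO LPS, 123 and 136 TPM in WT LPS, 113 TPM in KO M0, and 83.5 and 108 TPM in WT M0. Cbfb did not pass in any comparison of the main fit. For WT LPS against WT M0 it did under median-ratio scaling (0.66, adjusted p 0.00757) and with the replicate block (0.44, adjusted p 0.0247). Without WT M0 replicate 2 its value was 0.63. Whether the replicate numbers pair the samples was not settled. Of the 7 tested cofactors and paralogs of Runx1, 2 fell with LPS in both genotypes and 0 rose, where 24.3% and 29.6% of all genes fell in knockout and wild-type cells: Tle1, a corepressor, with log2 fold changes of -1.78 in knockout and -1.31 in wild-type cells, and Tle3 with -0.74 and -0.60. Neither Tle3 call held under median-ratio scaling (adjusted p 0.19 and 0.187). Leaving out KO LPS replicate 2 (0.138) or either WT M0 library (0.0561 and 0.0562) ended it in knockout cells, and leaving out WT LPS replicate 2 (0.248) or either WT M0 library (0.0957 and 0.117) ended it in wild-type cells.

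The C/EBP genes moved in different directions. C/EBP factors are leucine-zipper proteins that bind as dimers to shared sites: Cebpa is needed to make granulocyte-macrophage progenitors and restrains the cell cycle, Cebpb supports macrophage survival and drives both inflammatory genes and Arg1, and Cebpd is an acute-phase factor that, in mouse macrophages, amplifies LPS induction of Il6. The promoters of Cebpa and Cebpb are shown because Cebpa was called lower with LPS in both genotypes, while its relative Cebpb was called in neither. The difference between these genes was not tested. The sequences are RefSeq promoters of GRCm38.p6, plus strand, 250 bases before to 50 after the annotated start. Capitals mark TATAAA in both and, in Cebpb, TGACG or its reverse complement, the core of a cyclic AMP response element. Cebpa is at chr7:35119043-35119342 and Cebpb at chr2:167688665-167688964.
Cebpa: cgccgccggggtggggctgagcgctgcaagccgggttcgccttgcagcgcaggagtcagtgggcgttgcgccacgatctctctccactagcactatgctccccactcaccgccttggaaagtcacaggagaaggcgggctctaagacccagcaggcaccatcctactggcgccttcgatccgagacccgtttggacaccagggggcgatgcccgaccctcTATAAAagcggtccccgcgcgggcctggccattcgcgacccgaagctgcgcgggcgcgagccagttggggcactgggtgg
Cebpb: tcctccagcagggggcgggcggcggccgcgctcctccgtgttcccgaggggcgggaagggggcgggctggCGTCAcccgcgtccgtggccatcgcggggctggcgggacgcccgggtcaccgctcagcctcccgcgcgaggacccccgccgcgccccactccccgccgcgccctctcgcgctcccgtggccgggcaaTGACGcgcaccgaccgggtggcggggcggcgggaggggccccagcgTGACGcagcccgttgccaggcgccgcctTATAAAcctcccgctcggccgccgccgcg
Each holds 1 TATAAA, a motif found in 13.6% of 32851 RefSeq promoters on either strand. In Cebpa it begins 30 bases before the annotated start, and in Cebpb it begins after the start, at position 22. Cebpb also holds 3 TGACG matches (20.8% of promoters have at least 1) and 5 GGGCGG matches (35.7%), 2 of which overlap, while Cebpa holds 0 of both. Its first TGACG match shares 2 bases with a CACCC match. Neither holds a match to TTNNGCAA, a C/EBP core that 10.8% of promoters have. A match is a description of letters, not a bound site.

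Cebpa gave the largest genotype difference of the 9 factors. This gene at chr7:35119293-35121928 was at 20.3 and 12.0 TPM in KO LPS, 47.3 and 45.7 TPM in WT LPS, 82.8 TPM in KO M0, and 84.0 and 102 TPM in WT M0. The 4 groups did not overlap, in the order WT M0, KO M0, WT LPS and KO LPS from high to low, although KO M0 lay close below the nearer WT M0 library. In KO LPS the level was 2.86-fold lower than in WT LPS on the TPM + 1 scale (log2 fold change -1.51, SE 0.23, adjusted p 0.00277). It was 5.04-fold lower in KO LPS than in KO M0 (-2.33, SE 0.28, adjusted p 0.000102) and 1.97-fold lower in WT LPS than in WT M0 (-0.98, SE 0.23, adjusted p 0.00566). The difference between both responses was -1.36 (SE 0.36), which did not pass after adjustment (unadjusted p 0.00356, adjusted p 0.13) but did without KO LPS replicate 1 (-1.71, adjusted p 0.0392). The genotype call under LPS was lost when all detected genes were tested, with no filter on mean TPM (adjusted p 0.0734), and the wild-type LPS call was lost without WT M0 replicate 2 (-0.84, adjusted p 0.0596).

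Cebpd moved the opposite way. This gene at chr16:15887286-15889545 was at 261 and 251 TPM in KO LPS, 165 and 132 TPM in WT LPS, 53.9 TPM in KO M0, and 71.7 and 65.8 TPM in WT M0. Both KO LPS libraries were above both WT LPS libraries, and the KO M0 library was below both WT M0 libraries. Under LPS it was 1.73-fold higher in knockout cells (log2 fold change 0.79, SE 0.16, adjusted p 0.0155). That call was lost on leaving out KO LPS replicate 1 (log2 fold change 0.76, adjusted p 0.0712), KO LPS replicate 2 (0.82, adjusted p 0.0655) or WT LPS replicate 2 (0.63, adjusted p 0.179), and with no filter (adjusted p 0.0703). Cebpd rose 4.68-fold in KO LPS against KO M0 (2.23, SE 0.20, adjusted p 1.36e-05) and 2.14-fold in WT LPS against WT M0 (1.09, SE 0.16, adjusted p 0.000353). The difference between both responses was 1.13 (SE 0.26, unadjusted p 0.00124, adjusted p 0.0695) and did not pass in any of 11 alternatives (adjusted p 0.0765 to 0.242). In GENCODE the Cebpd gene overlaps Spidr, a gene on the opposite strand, over 1808 bases. Spidr was at 26.2 and 25.3 TPM in KO LPS, 18.8 and 22.8 TPM in WT LPS, 8.49 TPM in KO M0, and 7.33 and 8.30 TPM in WT M0. Whether reads were counted by strand is not given in the sources used here, so reads from the shared stretch cannot be assigned to Cebpd or Spidr.

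Cebpb was the most abundant C/EBP gene in every library. This gene at chr2:167688915-167690432 was at 1262 and 820 TPM in KO LPS, 1671 and 1310 TPM in WT LPS, 1306 TPM in KO M0, and 823 and 1340 TPM in WT M0. Both WT LPS libraries were above both KO LPS libraries, while the LPS and M0 libraries overlapped in wild type. The replicates differed by 1.54 times in KO LPS, 1.28 times in WT LPS and 1.63 times in WT M0. The log2 fold change was -0.54 for KO LPS against WT LPS (95% interval -1.12 to 0.04, adjusted p 0.291), -0.36 for KO LPS against KO M0 (-1.07 to 0.36) and 0.49 for WT LPS against WT M0 (-0.09 to 1.08, adjusted p 0.152). Cebpb overlaps Tmem189 on the opposite strand over 908 bases, and Tmem189 was at 226 and 182 TPM in KO LPS, 244 and 239.6 TPM in WT LPS, 271 TPM in KO M0, and 265 and 264 TPM in WT M0, so their reads carry the same uncertainty. Cebpb also lies 9.54 Mb from Tgm2 on chromosome 2.

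Read as shares of the summed TPM of Cebpa, Cebpb, Cebpd, Cebpe and Cebpg, the family held less Cebpa and more Cebpd in the LPS libraries, with the lowest Cebpa and highest Cebpd shares in KO LPS. Cebpa made up 1.29% and 1.08% of the sum in KO LPS, 2.47% and 3.02% in WT LPS, 5.64% in KO M0, and 8.40% and 6.64% in WT M0. Cebpd made up 16.7% and 22.7% in KO LPS, 8.61% and 8.74% in WT LPS, 3.67% in KO M0, and 7.17% and 4.28% in WT M0. Cebpb held 74.2% to 88.9% of the sum in the 7 libraries. There were 62.2 and 68.5 Cebpb transcripts for each of Cebpa in KO LPS, 35.4 and 28.6 in WT LPS, 15.8 in KO M0, and 9.80 and 13.1 in WT M0. Cebpg, a truncated family member without an activation domain, was between 19.8 and 29.6 TPM and passed in no comparison, but for WT LPS against WT M0 Cebpg did under median-ratio scaling (0.54, adjusted p 0.0256) and quantile normalization (0.47, adjusted p 0.0383). Cebpe, the late granulocyte member, was at most 1.35 TPM and was not tested. These shares were not tested.

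**Figure D2:**
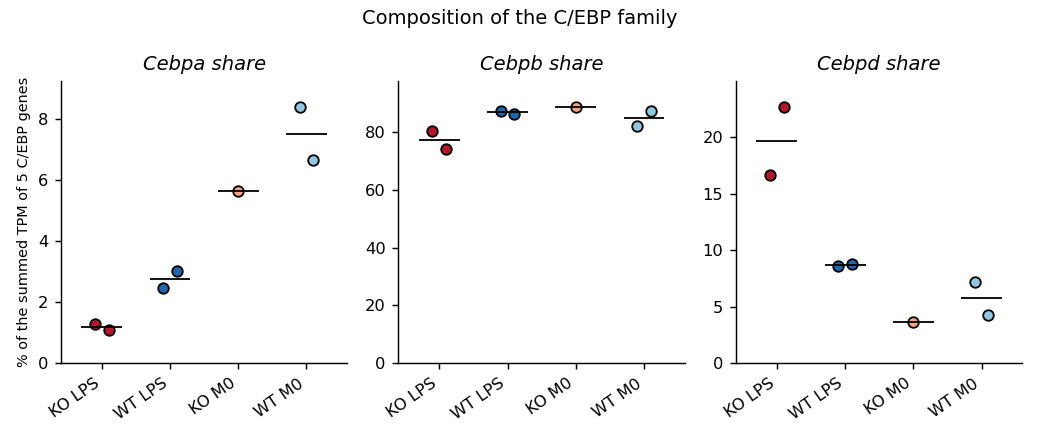
Left to right, the shares of Cebpa, Cebpb and Cebpd in the summed TPM of 5 C/EBP genes (percent), by group, with a point per library and a line at the group mean. Cebpa has its lowest shares in KO LPS, at 1.29% and 1.08%, where Cebpd has its highest, at 16.7% and 22.7%.

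Among the partners and regulators of C/EBP proteins the calls also went both ways. Of the 11 tested bZIP partners and relatives other than these 3 genes, 1 was higher and 2 were lower in KO LPS against WT LPS, 3 rose and 3 fell in KO LPS against KO M0, and 5 rose and 3 fell in WT LPS against WT M0. Over all tested genes 4.59% were higher and 2.58% lower in the first, 13.8% and 24.3% in the second, and 15.0% and 29.6% in the third. Batf, an AP-1 family factor that pairs with Jun proteins, was at 91.7 and 82.7 TPM in KO LPS, 52.2 and 53.0 TPM in WT LPS, 8.36 TPM in KO M0, and 17.6 and 18.8 TPM in WT M0. Its genotype difference under LPS was 0.72 (SE 0.16, adjusted p 0.0244), which missed the threshold on leaving out any LPS library (adjusted p 0.0842 to 0.137) and with no filter (0.0502). Atf5, a stress-response factor, was at 19.5 and 21.7 TPM in KO LPS, 80.7 and 70.5 TPM in WT LPS, 35.8 TPM in KO M0, and 42.0 and 42.5 TPM in WT M0. With LPS, Atf5 fell in knockout cells (-0.77, adjusted p 0.0124, and 0.0696 under median-ratio scaling) and rose in wild-type cells (0.82, adjusted p 0.00236). Batf2 rose with LPS to 90.1 and 74.4 TPM in KO LPS against 5.36 TPM in KO M0, and to 63.0 and 46.6 TPM in WT LPS against 5.29 and 5.49 TPM in WT M0. Trib1, an adaptor that carries C/EBPα to the ubiquitin ligase Cop1 for degradation, was at 34.5 and 36.5 TPM in KO LPS, 48.4 and 40.0 TPM in WT LPS, 75.5 TPM in KO M0, and 67.3 and 85.4 TPM in WT M0. It fell with LPS in knockout (-1.07, adjusted p 0.00346) and in wild-type cells (-0.77, adjusted p 0.00567, and 0.0549 without WT LPS replicate 2). Cop1, listed under its older symbol Rfwd2, rose in knockout (0.93, adjusted p 0.00449) and in wild-type cells (1.32, adjusted p 0.000103).

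Genes known as C/EBP-beta or C/EBP-delta targets were mostly higher with LPS. Of 19 tested, 17 rose and 0 fell in KO LPS against KO M0 (median log2 fold change 3.90, against -0.24 over all genes), and 17 rose and 1 fell in WT LPS against WT M0 (3.57, against -0.21). In KO LPS against WT LPS, 8 were higher and 2 lower (0.62, against 0.03). Over all tested genes 13.8% rose and 24.3% fell in the first, 15.0% and 29.6% in the second, and 4.59% were higher and 2.58% lower in the third. Arg1, 1 of the 2 lower genes, was at 0.910 and 1.22 TPM in KO LPS against 7.69 and 11.2 TPM in WT LPS (-2.32, SE 0.24, adjusted p 0.000276 by limma). Lcn2, a protein that withholds iron from bacteria, was at 1594 and 1870 TPM in KO LPS against 545 and 643 TPM in WT LPS (log2 fold change 1.54, SE 0.17, adjusted p 0.00052), with 1.17 TPM in KO M0 and at most 1.79 TPM in WT M0. Nos2, the inducible nitric oxide synthase, was at 815 and 804 TPM in KO LPS against 343 and 206 TPM in WT LPS (1.60, SE 0.22, adjusted p 0.00176, and 0.0621 with no filter). Hp, the acute-phase protein haptoglobin, was at 1015 and 1101 TPM in KO LPS against 1376 and 1482 TPM in WT LPS and did not pass (-0.43, adjusted p 0.186). Many genes on this list are also targets of other LPS-activated factors, and the list was drawn up with these data known.

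Maf, at chr8:115703253-115706894, encodes c-Maf, which restrains the division of macrophages and activates Il10. Its level was 209 and 229 TPM in KO LPS, 246 and 180 TPM in WT LPS, 309 TPM in KO M0, and 210 and 338 TPM in WT M0. The groups overlapped, and WT M0 replicate 1 was at the level of the LPS libraries. The log2 fold change was 0.06 for KO LPS against WT LPS (95% interval -0.45 to 0.57), -0.49 for KO LPS against KO M0 (-1.12 to 0.13) and -0.34 for WT LPS against WT M0 (-0.85 to 0.17, adjusted p 0.259). The wild-type LPS value passed without WT M0 replicate 1 (-0.68, adjusted p 0.0475).

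Of 6 tested MAF relatives and partners, 2 rose and 1 fell with LPS in each genotype, where 38.1% of all genes were called in knockout and 44.6% in wild-type cells. The one that fell was Bach1, a repressor that pairs with small Maf proteins, at -1.85 in knockout and -1.27 in wild-type cells. Of 16 tested genes known as c-Maf targets, 1 rose and 12 fell in KO LPS against KO M0 (median -1.88), and 1 rose and 10 fell in WT LPS against WT M0 (median -1.69). Over all tested genes 24.3% fell in the first (median -0.24) and 29.6% in the second (median -0.21). In KO LPS against WT LPS, 1 of the 16 was higher and 3 were lower (median -0.24), where 4.59% and 2.58% of all genes were. The scavenger protein gene Cd5l was at 2.45 and 1.87 TPM in KO LPS, 11.2 and 10.6 TPM in WT LPS, 85.0 TPM in KO M0, and 71.8 and 71.1 TPM in WT M0. Gas6, a ligand that bridges dying cells to Mertk, was at 113 and 117 TPM in KO LPS, 37.3 and 35.4 TPM in WT LPS, 638 TPM in KO M0, and 657 and 704 TPM in WT M0, so it was higher in KO LPS than in WT LPS where Cd5l was lower.

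Mef2c, Klf2 and Klf4 were lower with LPS in both genotypes, and none was called between genotypes. MEF2 factors are MADS-box proteins that, in mouse endothelial cells, switch on Klf2 downstream of the kinase Erk5 (Mapk7). Klf2 restrains inflammatory activation of myeloid cells and Klf4 directs monocyte differentiation and alternative activation, both through zinc fingers that bind GC-rich and CACCC sequence. The Klf2 and Klf4 promoters are shown because these were the 2 most alike of the 9 in pattern and because Klf2 carries a MEF2 match. They are at chr8:72318812-72319111 (plus strand) and chr4:55532426-55532725 (minus strand) of GRCm38.p6, from RefSeq. Capitals mark the MEF2 consensus in Klf2 and GGGCGG or its reverse complement in Klf4.
Klf2: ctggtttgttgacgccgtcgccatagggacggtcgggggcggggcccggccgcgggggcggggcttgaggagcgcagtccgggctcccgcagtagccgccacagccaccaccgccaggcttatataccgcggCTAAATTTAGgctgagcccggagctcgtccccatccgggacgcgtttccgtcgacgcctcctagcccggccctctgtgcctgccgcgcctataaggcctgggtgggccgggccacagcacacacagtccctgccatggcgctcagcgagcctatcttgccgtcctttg
Klf4: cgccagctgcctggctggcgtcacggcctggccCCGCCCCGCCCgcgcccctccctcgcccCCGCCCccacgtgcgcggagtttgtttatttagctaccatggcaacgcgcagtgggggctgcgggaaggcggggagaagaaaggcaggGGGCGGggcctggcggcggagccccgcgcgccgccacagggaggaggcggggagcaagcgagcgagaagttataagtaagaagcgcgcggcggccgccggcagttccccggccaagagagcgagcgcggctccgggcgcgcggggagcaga
The MEF2 match of Klf2 begins 118 bases before the start, and 3.19% of RefSeq promoters hold a match on either strand. Among the 9 starts of the 6 factors with a promoter entry, Klf2 had the only MEF2 match. Klf4 holds 4 GGGCGG matches, 2 of them sharing a base, and Klf2 holds 2. The promoters of Klf2 and Klf4 contain 69.3% and 74.3% G and C, above 89.9% and 95.8% of all promoters. The annotated Mef2c starts were less GC-rich, at 35.7% to 48.3%. No motif was tested for any effect on these levels.

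Mef2c, at chr13:83504017-83667079, was at 3.88 and 5.61 TPM in KO LPS, 3.99 and 3.97 TPM in WT LPS, 30.9 TPM in KO M0, and 20.5 and 34.9 TPM in WT M0. All 4 LPS libraries were at or under 5.61 TPM and all 3 M0 libraries at or over 20.5 TPM. The log2 fold change was -2.49 in knockout (SE 0.32, adjusted p 0.000169) and -2.48 in wild-type cells (SE 0.26, adjusted p 3.18e-05), the largest LPS change of the 9 in both on the TPM scale. Under median-ratio scaling the knockout change of Cebpd (2.47) was larger than that of Mef2c (-2.26). The difference between both responses was -0.01, with a 95% interval from -0.93 to 0.91, so the data also allow responses that differ by almost that much.

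Klf2, at chr8:72319062-72321654, was at 23.6 and 15.6 TPM in KO LPS, 19.3 and 15.9 TPM in WT LPS, 47.0 TPM in KO M0, and 42.5 and 57.3 TPM in WT M0. KO LPS and WT LPS overlapped, as did KO M0 and WT M0. It was 2.37-fold lower in KO LPS than in KO M0 (-1.25, SE 0.28, adjusted p 0.00592) and 2.73-fold lower in WT LPS than in WT M0 (-1.45, SE 0.23, adjusted p 0.000565). Between genotypes under LPS the difference was 0.13 (95% interval -0.38 to 0.64).

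Klf4, at chr4:55527137-55532475, was at 7.83 and 6.64 TPM in KO LPS, 11.4 and 6.61 TPM in WT LPS, 28.4 TPM in KO M0, and 22.0 and 29.6 TPM in WT M0. The LPS libraries of both genotypes overlapped and all lay below the M0 libraries. Its log2 fold change was -1.84 in knockout (SE 0.31, adjusted p 0.00103) and -1.45 in wild-type cells (SE 0.25, adjusted p 0.00103). Under LPS the genotype difference was -0.24 (95% interval -0.81 to 0.32).

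In the same families, the calls under LPS were mixed. Of 14 tested MEF2 relatives and regulators, 2 rose and 3 fell in KO LPS against KO M0 (median -0.23), and 2 rose and 4 fell in WT LPS against WT M0 (median -0.09), where 38.1% and 44.6% of all genes were called. Of the class IIa deacetylases, which hold MEF2 factors inactive, Hdac4 and Hdac5 fell and Hdac7 and Hdac9 were not called. The log2 fold changes in knockout and wild-type cells were -2.20 and -1.16 for Hdac5 and -1.84 and -1.38 for Hdac4. They were -0.24 and -0.14 for Hdac7, and -0.18 and 0.47 for Hdac9. Hdac5 was at 11.6 and 9.53 TPM in KO LPS against 20.0 and 22.0 TPM in WT LPS (-0.93, SE 0.19, adjusted p 0.0131), a call lost with no filter (0.0731) and on leaving out KO LPS replicate 2 (0.102) or WT LPS replicate 2 (0.0973). Mapk7 rose in knockout (0.70, adjusted p 0.0415) and in wild-type cells (0.98, adjusted p 0.00234). The knockout call for Mapk7 was lost on leaving out KO LPS replicate 1 (0.48, adjusted p 0.183) or any of the 4 WT libraries (adjusted p 0.0512 to 0.0547). Of 13 tested KLF and SP genes other than Klf2 and Klf4, 3 rose and 1 fell in KO LPS against KO M0, and 2 rose and 1 fell in WT LPS against WT M0, below the share over all genes in each. Klf10, a TGF-β-induced member, was the one that fell in both (-2.33 and -1.23), and it was at 13.8 and 12.1 TPM in KO LPS against 23.2 and 28.8 TPM in WT LPS (-0.94, adjusted p 0.0229). That call was lost on leaving out KO LPS replicate 1 (0.0553), KO LPS replicate 2 (0.13) or WT LPS replicate 2 (0.176), and with no filter (0.135). Klf9 was at 6.61 and 5.05 TPM in KO LPS against 14.1 and 12.0 TPM in WT LPS (-1.05, SE 0.21, adjusted p 0.0133), lost with no filter (0.0916) and on leaving out KO LPS replicate 2 (0.117) or WT LPS replicate 1 (0.0735). Of 12 tested genes known as Klf2 or Klf4 targets, 4 rose and 4 fell with LPS in each genotype, where 13.8% of all genes rose and 24.3% fell in knockout cells, and 15.0% and 29.6% in wild-type cells. The list's median was 0.02 in knockout and 0.20 in wild-type cells. Thbd, the anticoagulant receptor thrombomodulin that Klf2 activates in endothelium, fell in both (log2 fold change -2.86 in knockout and -2.60 in wild-type cells). S1pr1, a lymphocyte-egress receptor gene that Klf2 activates in T cells, fell too (-3.26 and -1.66). Both were named for their small p and do not stand for the list. In KO LPS against WT LPS, 1 of the 12 was higher and 2 were lower, where 4.59% and 2.58% of all genes were. S1pr1 was 1 of the 2 lower (-1.32, adjusted p 0.00383, and 0.0689 with no filter).

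The LPS responses of the 9 factors in both genotypes can be set side by side, since the knockout and wild-type contrasts share no library. Both use the same variance estimate for each gene, so their calls are not independent. All 5 called factors were called in both and in the same direction. Of all tested genes 38.1% were called in knockout and 44.6% in wild-type cells. The share called in both in the same direction was not counted, so this agreement is not shown to be particular to the factors. Uncalled values differed in sign between genotypes for Cebpb (-0.36 in knockout, 0.49 in wild type) and for Runx1 (-0.20 and 0.41), with differences of -0.85 (95% interval -1.78 to 0.07) and -0.61 (-1.39 to 0.16) that did not pass. The median of all tested genes moved by -0.24 with LPS in knockout and -0.21 in wild-type cells in TPM, and by -0.01 in each after median-ratio scaling. Relative to that scaling the LPS log2 fold changes in knockout and wild type were -2.26 and -2.28 for Mef2c, -2.09 and -0.76 for Cebpa, -1.60 and -1.24 for Klf4, -1.0 and -1.23 for Klf2, and 2.47 and 1.31 for Cebpd. All 10 of those values passed the test.

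**Figure D3:**
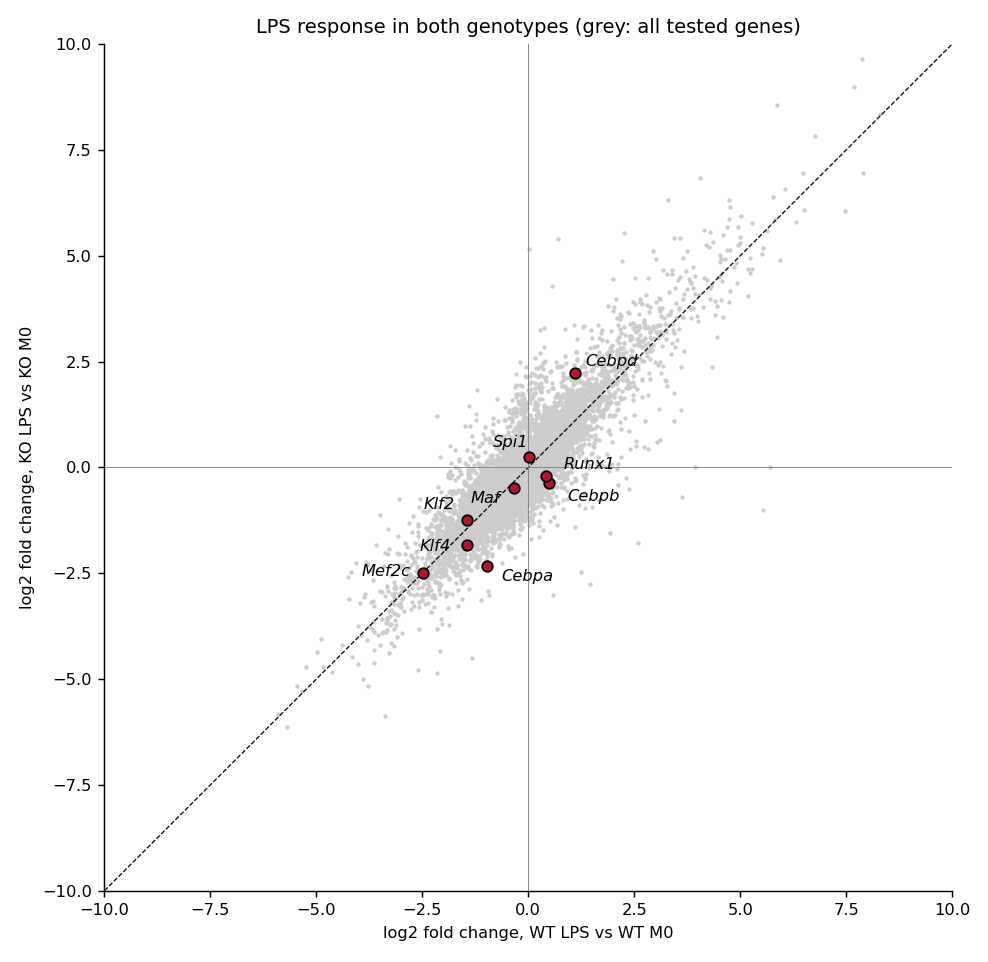
LPS log2 fold change of TPM + 1 in knockout cells (KO LPS vs KO M0, vertical) against wild-type cells (WT LPS vs WT M0, horizontal) for all 11096 tested genes in grey and the 9 factors in red. The dashed line marks equal responses: Mef2c lies on it (-2.49 and -2.48), Cebpa lies below it (-2.33 and -0.98) and Cebpd above it (2.23 and 1.09).

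**Figure D4:**
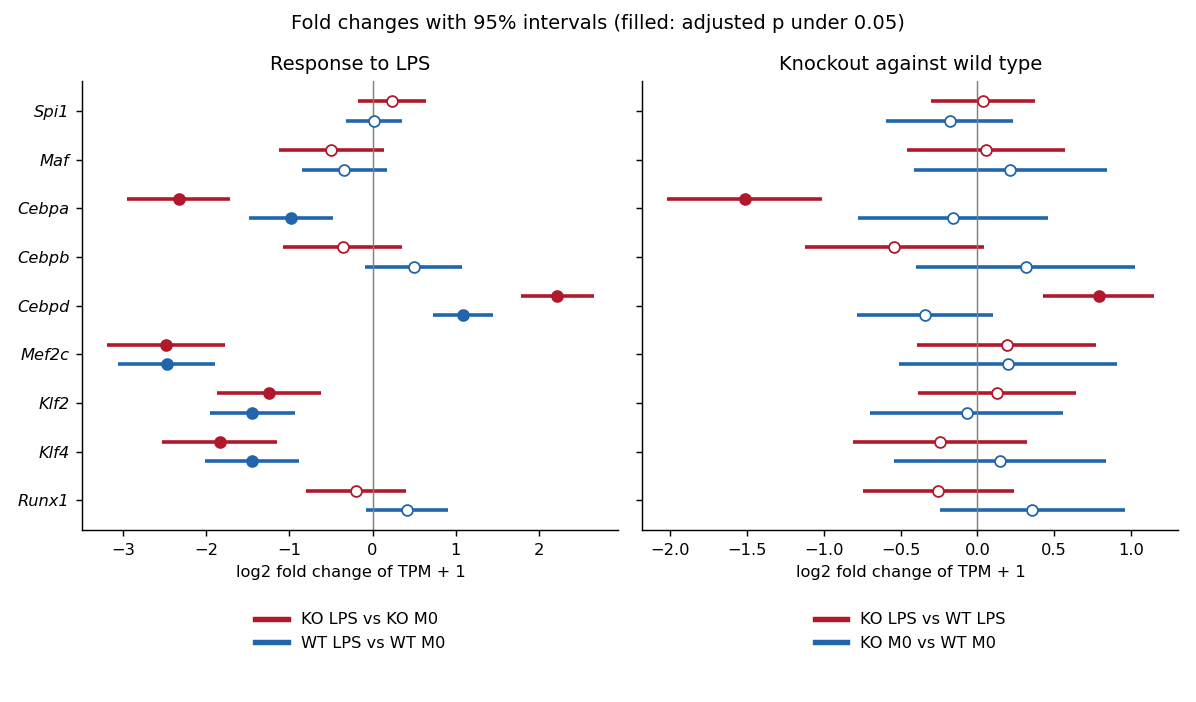
Log2 fold changes of the 9 factors with 95% intervals from limma, for the LPS response (left: KO LPS vs KO M0 in red, WT LPS vs WT M0 in blue) and for knockout against wild type (right: with LPS in red, without LPS in blue), with filled circles at an adjusted p under 0.05. On the right only Cebpa (-1.51) and Cebpd (0.79) are filled, both with LPS.

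Without LPS, no factor differed detectably between the single KO M0 library and WT M0. The log2 fold changes ran from -0.34 for Cebpd to 0.36 for Runx1, with standard errors of 0.19 to 0.32. The 95% intervals were wide, from -0.40 to 1.03 for Cebpb and from -0.78 to 0.46 for Cebpa. The KO M0 value fell outside the range of the WT M0 replicates for Spi1, Cebpa and Cebpd, below it in each case, and inside it for the other 6. The share of all tested genes outside that range was not counted, so nothing particular to these factors can be read from it.

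Levels spanned a wide range. By mean TPM over the 7 libraries Cebpb and Spi1 stood above 99.6% and 99.5% of all genes, Maf and Cebpd above 97.2% and 95.2%, Cebpa and Runx1 above 88.2% and 87.4%, Klf2 above 81.6%, and Klf4 and Mef2c above 72.8% and 71.7%. Replicates often differed in the same direction across the factors: in WT M0, replicate 2 was higher for 7 of 9 (65.9% of tested genes), and in WT LPS, replicate 1 was higher for 8 of 9, while replicate 2 was higher for 65.9% of tested genes. The widest replicate gaps were in WT LPS for Klf4 (1.72 times), in WT M0 for Mef2c (1.71 times) and in KO LPS for Cebpa (1.69 times), and the narrowest were for Runx1 in KO LPS and Mef2c in WT LPS.

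Likeness of pattern was measured as the root-mean-square difference between log2(TPM + 1) profiles over the 7 libraries, each centred and divided by its SD, among 10132 named genes. These profiles share libraries and hold 4 groups, so close matches are common. Among the factors, Klf2 and Klf4 were closest (0.28 SD), then Mef2c and Klf4 (0.32) and Mef2c and Klf2 (0.34). Cebpa lay closest to Creg1 (0.06), a secreted glycoprotein, whose level was 276 and 221 TPM in KO LPS, 364 and 377 TPM in WT LPS, 458 TPM in KO M0, and 462 and 488 TPM in WT M0. Next to it came Fosl1 and Orai3. Cebpd was nearest to Il20rb, Tmem229b and Wnt6, Mef2c to Dock1, Fkbp9 and Pros1, Klf2 to Shb, Jund and Sf3b4, and Klf4 to Rab35, Plekhm2 and Mamdc2. The 4 uncalled factors had looser neighbours: Cebpb was nearest to Hnrnpk (0.14) and Mex3d, Runx1 to Foxk2 (0.11) and Gtf2a1, Spi1 to Trim3 (0.26) and Blvrb, and Maf to Cask (0.30) and Prpsap1.

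Gene structure played no part in choosing the factors. In GENCODE, 4 of the 9 (Maf, Cebpa, Cebpb and Cebpd) have a single exon in their longest coding transcript, against 2.05% of tested genes. The G and C content of the coding sequence ran from 58.5% in Spi1 to 73.4% in Cebpb for 8 of the 9, above the median of 52.6% over tested genes, and was below that median in Mef2c at 50.5%. ATTTA, the core of AU-rich decay elements, was present in the 3′ untranslated region of 6 of 9, near the share of 69.2% over tested genes. Runx1 had 14 copies, Mef2c 11, Maf and Cebpd 7 each, and Klf2 and Klf4 1 each, while Spi1, Cebpa and Cebpb had 0, and the median gene had 2. Antisense genes overlap the spans of Maf, Cebpa and Runx1 in the annotation, over 2156, 313 and 7292 bases, and the data list no level for them. With strand counting not given, reads from these shared stretches cannot be assigned to either gene.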

How the data were processed

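The authors deposited TPM per gene for each of the 7 libraries, and every library sums to 1000000. Per the submitters' processing notes the build is mm10. Which aligner, quantifier, annotation and strand setting were used is not given in the sources used here, so values of overlapping genes are uncertain. Names were matched to RefSeq of GRCm38.p6, the assembly of mm10: 20756 by symbol, 2311 by synonym and 270 not at all.

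A mean of at least 1 TPM was required, and the 11096 genes that met it were tested with limma 3.58.1 in R 4.3.3 on log2(TPM + 1), a scale that understates changes of low genes. The fit held a mean per group over all 7 libraries, with trended moderated variances (3 residual degrees of freedom) and Benjamini-Hochberg adjustment at 0.05. KO M0, a single library, takes its spread from the other groups. The steps were tested on simulated data. The 9 factors and all lists were chosen with earlier results of these data known. Named genes are the 9 factors, up to 3 genes of smallest p per list, Tgm2, Irf8, Csf1r, Trib1, Cbfb, Cebpe and Cebpg, and 3 nearest patterns per factor. A further gene of that rule is not reported here. Spidr, Tmem189, Kdm5d, Xist, Arg1, Il6, Il12b, Myb, Hdac7, Hdac9 and single cell-type markers were added after their values were seen. Whether replicate numbers pair the samples was not settled. Alternatives were median-ratio scaling, quantile normalization, a pseudocount of 0.1, no filter, a minimum mean TPM of 5, the compared groups alone, each library left out, both WT LPS libraries left out, and the replicate block. Figures used matplotlib 3.10.9.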

Additional observations from a re-analysis of the deposited data

Results flagged for a closer look

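None of the 9 factors passed the test of the difference between both LPS responses (knockout minus wild type), but 7 other genes chosen by the naming rule did, by limma with Benjamini-Hochberg adjustment over all tested genes. Outside that rule other genes passed too. Among them were Xist (-5.70, adjusted p 8.24e-05), Il12b (3.02, adjusted p 0.00497), Arg1 (-2.54, adjusted p 0.0125), Il6 (2.68, adjusted p 0.0167) and Myb (1.83, adjusted p 0.0421). These are examples and not a full list. The test uses WT LPS, whose libraries stand apart in Xist. Batf differed by 1.75 (adjusted p 0.0122, and 0.0895 without WT M0 replicate 1). Atf5 differed by -1.59 (adjusted p 0.0185), falling with LPS in knockout and rising in wild-type cells. Its call was lost on leaving out KO LPS replicate 1 (0.0553), WT LPS replicate 1 (0.0517) or either WT M0 library (0.114 and 0.067). Marco, a scavenger receptor, differed by 2.78 (adjusted p 0.046), with 943 and 570 TPM in KO LPS against 194 and 129 TPM in WT LPS, and 5.46 TPM in KO M0 against 13.4 and 5.45 TPM in WT M0. That call was lost under median-ratio scaling (0.133) and on leaving out KO LPS replicate 1 (0.111), WT LPS replicate 2 (0.109) or WT M0 replicate 1 (0.178). Lcn2 differed by 1.77 (adjusted p 0.0165, 0.0522 without KO LPS replicate 2 and 0.107 without WT M0 replicate 1). Gas6 differed by 1.73 (adjusted p 0.0084) and Cd5l by -2.17 (adjusted p 0.00836), and without WT M0 replicate 1 both missed the threshold (0.0707 and 0.0895). S1pr1 differed by -1.60 (adjusted p 0.0479), lost on leaving out either KO LPS library (0.12 and 0.0795), WT LPS replicate 2 (0.113) or either WT M0 library (0.244 and 0.111). With no filter on low values none of these 7 genes passed (adjusted p 0.0561 to 0.319). The number of genes called for this difference was 6 without WT M0 replicate 1 and 152 with all libraries.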

How the results depend on the processing

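Of 585 alternative values for the 9 factors, 550 kept their direction and their side of the threshold, 6 lost a call, 4 gained one, and 25 changed sign without being called in either fit. For other named genes the counts were 1262 of 1382 kept, 113 lost, 5 gained and 2 changed in sign. With no filter on low values, 0 of 9 factors and 307 genes were called for KO LPS vs WT LPS, 20 genes for KO M0 vs WT M0 and 10 for the difference between LPS responses. A pseudocount of 0.1 gave 2 genes for KO M0 vs WT M0 and 92 for the difference, and the compared groups alone gave 8 for KO M0 vs WT M0. Leaving out each library gave 1 to 2 factors and 399 to 800 genes for KO LPS vs WT LPS, 1 to 3 genes for KO M0 vs WT M0, 3554 to 4948 genes and 5 to 6 factors for WT LPS vs WT M0, and 0 to 1 factors and 6 to 146 genes for the difference. Differences between replicates 1 and 2 correlated at 0.18, 0.30 and 0.08 between groups, which cannot settle whether replicate numbers pair the samples. With the replicate block the called factors stayed at 2 for KO LPS vs WT LPS and 5 for WT LPS vs WT M0. In the first, Cebpa was at adjusted p 0.00487 and Cebpd at 0.00899 by limma. Called genes were 1109 in place of 795 in the first, and 5664 in place of 4949 in the second. Sign changes under median-ratio scaling were those of Mef2c for the difference (0.0245, and 0.0169 at a pseudocount of 0.1), Runx1 for KO LPS vs KO M0 (0.0482), Irf8 for WT LPS vs WT M0 (0.15) and Cebpg for KO LPS vs KO M0 (0.0549). The others came from leaving out a library. For KO LPS vs WT LPS the values then ran from -0.0356 to 0.11 for Spi1, -0.17 to 0.28 for Maf, -0.0281 to 0.41 for Mef2c, -0.15 to 0.41 for Klf2 and -0.59 to 0.11 for Klf4. For KO M0 vs WT M0 they ran from -0.13 to 0.56 for Maf, -0.038 to 0.67 for Cebpb, -0.17 to 0.57 for Mef2c, -0.28 to 0.14 for Klf2, -0.0588 to 0.35 for Klf4 and -0.0019 to 0.72 for Runx1. For WT LPS vs WT M0 they ran from -0.0748 to 0.11 for Spi1 and -0.68 to 0.0042 for Maf, and for the difference from -0.50 to 0.19 for Maf, -0.38 to 0.36 for Mef2c and -0.0839 to 0.48 for Klf2. The cause of these changes was not tested. Depth is unknown, and 2 libraries a group, or 1 for KO M0, limit precision.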
